A study of Mus musculus with 3 samples.

Results

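The genes that write, maintain and remove 5-methylcytosine in DNA were examined in total RNA of F121-9 mouse embryonic stem (ES) cells. They were chosen by symbol and number 10 of the 55536 genes in the gene tables: the methyltransferase genes Dnmt1, Dnmt3a, Dnmt3b and Dnmt3l, the maintenance reader genes Uhrf1 and Uhrf2, the dioxygenase genes Tet1, Tet2 and Tet3, and the glycosylase gene Tdg. Their annotated transcripts number 97 of 141862. F121-9 is a hybrid line with Cast and 129 parents. Per the labels, its 3 libraries are biological replicates taken at passage 14, and 400 ng of RNA with ERCC and SIRV spike-ins went into each. They form 1 group, with no treatment and no control line. The values therefore describe 1 cell line, and a p-value of the spread tests measures spread among 3 libraries that may be technical in origin. A p-value between quantifications of the same reads measures how steadily these differ over the 3 libraries.

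Mammalian DNA methylation sits mostly on cytosines followed by guanine (CpG). DNMT3A and DNMT3B place new methyl groups with the inactive cofactor DNMT3L, while UHRF1 recognises the half-methylated sites behind a replication fork and brings in DNMT1 to copy the pattern. TET proteins oxidise 5-methylcytosine, TDG cuts out the oxidised bases, and base excision repair restores cytosine. Mouse ES cells are known to express both arms and to survive the loss of either.

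Each library came with 2 quantifications of the same reads on mm10 with the GENCODE M21 annotation. One was made from the read files without an alignment and has the columns that kallisto writes (kallisto-style), and the other was made from transcriptome alignments and has the columns that RSEM writes (RSEM-style). Levels are in TPM, a transcript abundance corrected for transcript length and library size. Estimated totals were 19156106, 17717726 and 18471552 counts in the kallisto-style tables of replicates 1, 2 and 3, and 10610782, 9765384 and 10175403 counts in the RSEM-style tables. For a gene with 0 counts the limit is 3 counts, which in the RSEM-style tables is 0.283 to 0.307 CPM, counts scaled to the depth of each library, and covers counting error only. The ES markers Pou5f1, Sox2, Nanog, Zfp42, Esrrb, Klf4, Tfcp2l1 and Utf1 all had means between 106 and 505 TPM, and their sum lay between 2137 and 2454 TPM. Of 4 formative and primed epiblast markers, 3 had at least 1 TPM in all libraries, with a sum of 9.64 to 10.7 TPM, and Fgf5 averaged 0.170 TPM on 4 counts in all. None of 8 fibroblast markers (feeder cells) had 1 TPM in all RSEM-style libraries. Their RSEM-style sum was 1.84 to 2.59 TPM, and 4 of them (Col3a1, Postn, Dcn and Lum) had 0 RSEM-style counts. Thy1 had at least 1 TPM in all kallisto-style libraries, with a mean of 1.66 ± 0.336 TPM (SD, n = 3). Its RSEM-style levels were 1.40, 1.34 and 0.43 TPM in replicates 1, 2 and 3. In bulk RNA, fewer cells that express a gene and less RNA per cell cannot be told apart.

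Of the 10 genes, 9 had at least 1 TPM in all 3 libraries, where 23.6% of all genes and 52.1% of protein-coding genes did. Tet3 missed the threshold, and the kallisto-style tables also gave 9 genes with Tet3 as the exception. The median of the 10 RSEM-style means was 33.1 TPM, and the median over the 11478 expressed protein-coding genes was 19.7 TPM. The order of the RSEM-style means was Uhrf1, Dnmt1, Tdg, Tet1, Uhrf2, Tet2, Dnmt3a, Dnmt3b, Dnmt3l and Tet3, and the kallisto-style means gave the same order. Over complete coding transcripts alone, a setting added after seeing the data, Uhrf2 stood above Tet1: by a log2 difference of 0.15 ± 0.05 (RSEM-style, SD, n = 3), in 3 of 3 libraries and without overlap. Of the 9 neighbouring pairs in the order of the means, 5 did not overlap between libraries in the kallisto-style tables and 8 did not in the RSEM-style tables. Dnmt3a and Dnmt3b overlapped in both. Tdg and Tet1, Uhrf2 and Tet2, and Dnmt3l and Tet3 overlapped in the kallisto-style tables alone. With 3 libraries the smallest p that an exact two-sided sign-flip test can give is 0.25, so the order is a description.

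**Figure D1:**
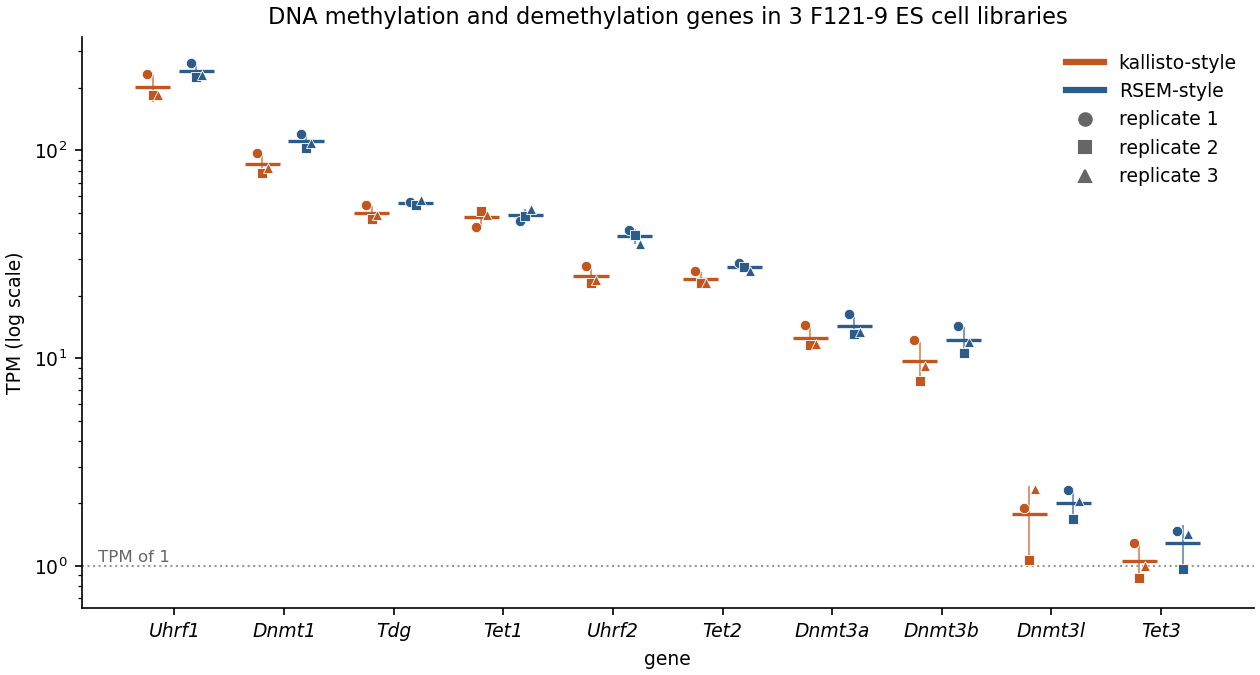
TPM (log scale) of the 10 genes in each library; marks are replicates 1, 2 and 3, bars are means and thin lines are 1 SD (n = 3), with kallisto-style values left of RSEM-style values. Uhrf1 and Dnmt1 stand highest, and Dnmt3l and Tet3 lie near the dotted line at a TPM of 1.

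Dnmt1 (chromosome 9, 20907209 to 20959888, minus strand) encodes the maintenance methyltransferase. Its kallisto-style levels were 97.2, 78.1 and 82.7 TPM in replicates 1, 2 and 3, and its RSEM-style levels were 120.32, 102.46 and 108.74 TPM. Replicate 1 was highest in both. Among the 4 Dnmt genes, Dnmt1 took 78.2% ± 0.962 of the summed TPM in the kallisto-style tables and 79.5% ± 0.886 in the RSEM-style tables (SD, n = 3).

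The annotated Dnmt1 transcripts begin at different first exons. Mouse Dnmt1 is known to have alternative first exons, among them an oocyte one whose protein starts further along; here the transcripts are called by their annotation names only. Dnmt1-201 has a coding sequence of 4860 nt, and Dnmt1-202, which starts 6909 nt further upstream, one of 4503 nt. Their starts are shown because the reads divided between them, as promoter windows of 300 bases in RefSeq's GRCm38.p6 table (250 before and 50 after the start, on the minus strand here, with CG in capitals).
Dnmt1-202 start at chr9:20959839-20960138: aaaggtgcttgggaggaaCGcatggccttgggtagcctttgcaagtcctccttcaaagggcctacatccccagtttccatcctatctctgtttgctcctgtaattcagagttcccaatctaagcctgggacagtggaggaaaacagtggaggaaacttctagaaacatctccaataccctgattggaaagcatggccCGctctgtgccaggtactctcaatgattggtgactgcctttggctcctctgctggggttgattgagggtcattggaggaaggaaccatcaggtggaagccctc
Dnmt1-201 start at chr9:20952930-20953229: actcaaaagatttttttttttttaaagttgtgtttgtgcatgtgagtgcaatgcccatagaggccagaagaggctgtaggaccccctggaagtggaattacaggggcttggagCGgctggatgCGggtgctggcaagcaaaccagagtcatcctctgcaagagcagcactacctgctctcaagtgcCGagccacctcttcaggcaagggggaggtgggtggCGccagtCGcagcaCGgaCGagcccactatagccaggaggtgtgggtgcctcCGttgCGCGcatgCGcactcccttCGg
CG reads the same on both strands, and it occurred 2 times in the Dnmt1-202 window and 12 times in the Dnmt1-201 window. Of the 32851 windows in the table, 85.9% held at least as many CG as the Dnmt1-202 window and 39.6% at least as many as the Dnmt1-201 window. A further window, at the start of Dnmt1-203, held 33 CG, a number reached by 8.56% of the windows. Dnmt1-203 and Dnmt1-207, which share that start region, together took 1.35% (kallisto-style) and 0.770% (RSEM-style) of the complete coding Dnmt1 TPM on average.

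Dnmt1-202 took 21.1%, 20.2% and 23.0% of the complete coding Dnmt1 TPM in the kallisto-style tables, and 34.2%, 26.1% and 32.9% in the RSEM-style tables. The libraries of the 2 quantifications did not overlap. Dnmt1-201 held 77.2% ± 1.71 by the kallisto-style and 68.2% ± 4.23 by the RSEM-style tables. The Dnmt1-202 and Dnmt1-201 sequences share 5092 nt, so 156 nt of Dnmt1-202 and 275 nt of Dnmt1-201 carry the reads that tell them apart. In the RSEM-style tables the posterior SD deposited for the Dnmt1-202 count was 147, 110 and 124 counts on posterior means of 1526, 944 and 1328 counts in replicates 1, 2 and 3.

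Dnmt3a (chromosome 12, 3806007 to 3914443, plus strand) encodes a de novo methyltransferase. It had 14.4, 11.6 and 11.7 TPM in the kallisto-style tables and 16.31, 13.14 and 13.30 TPM in the RSEM-style tables. Replicate 1 was again highest, and the other 2 lay close together. The complete coding transcripts form 2 sets: Dnmt3a-201 and Dnmt3a-218 at the upstream start with 2724 coding nt, and Dnmt3a-205 and Dnmt3a-203 at a start 84698 nt downstream with 2067 coding nt. The shorter protein from the internal start is the form known to prevail in mouse ES cells. The 2 starts are shown as RefSeq promoter windows on the plus strand.
Dnmt3a upstream start at chr12:3806910-3807209: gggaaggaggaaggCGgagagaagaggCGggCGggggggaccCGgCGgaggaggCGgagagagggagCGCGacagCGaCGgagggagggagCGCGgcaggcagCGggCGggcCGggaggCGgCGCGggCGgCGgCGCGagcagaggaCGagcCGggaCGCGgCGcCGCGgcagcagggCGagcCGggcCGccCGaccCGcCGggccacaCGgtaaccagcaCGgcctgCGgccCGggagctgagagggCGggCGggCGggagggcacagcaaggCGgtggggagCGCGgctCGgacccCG
Dnmt3a internal start at chr12:3891494-3891793: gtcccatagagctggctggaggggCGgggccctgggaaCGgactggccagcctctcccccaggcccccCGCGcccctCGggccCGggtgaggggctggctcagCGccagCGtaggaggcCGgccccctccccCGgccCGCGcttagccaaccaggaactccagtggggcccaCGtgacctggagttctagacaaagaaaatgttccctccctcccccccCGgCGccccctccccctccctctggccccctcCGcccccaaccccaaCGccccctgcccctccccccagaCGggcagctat
The upstream window held 47 CG, a number reached by 1.44% of the windows, and the internal window held 18, reached by 29.7%.

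Transcripts from the internal start took 59.4%, 55.1% and 49.3% of the complete coding Dnmt3a TPM in the kallisto-style tables and 57.2%, 57.0% and 49.5% in the RSEM-style tables. The means were 54.6% ± 5.06 (kallisto-style) and 54.6% ± 4.40 (RSEM-style), and replicate 3 was lowest in both. By estimated counts, which are not corrected for length, the same transcripts took 22.4% ± 3.29 in the kallisto-style tables and 22.1% ± 3.29 in the RSEM-style tables. Dnmt3a-205 is 2328 nt long and Dnmt3a-201 is 9685 nt long, and the start that led differed between TPM and counts. Between the upstream transcripts the tables differed. Dnmt3a-218 had 1.41, 1.81 and 2.54 TPM in the kallisto-style tables and 0, 0.04 and 1.76 TPM in the RSEM-style tables. It shares 98.9% of its bases with Dnmt3a-201.

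Dnmt3b (chromosome 2, 153649450 to 153687730, plus strand), the other de novo methyltransferase gene, had 12.2, 7.77 and 9.20 TPM in the kallisto-style tables and 14.29, 10.57 and 11.91 TPM in the RSEM-style tables. Replicate 1 was highest and replicate 2 lowest in both. Of the summed Dnmt3a and Dnmt3b TPM, Dnmt3a took 56.6% ± 2.95 by the kallisto-style and 53.8% ± 1.41 by the RSEM-style tables, and it was the higher of the pair in 3 of 3 libraries in both.

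All 10 complete coding Dnmt3b transcripts share 1 start region and differ in their exons. Forms that lack a pair of exons from the catalytic domain are known not to methylate DNA on their own. The pair is shown because the transcripts divided over it, and so is an upstream cassette exon that most of the level kept (GENCODE M21 transcript sequence, plus strand, CG in capitals).
first catalytic exon at chr2:153683608-153683677: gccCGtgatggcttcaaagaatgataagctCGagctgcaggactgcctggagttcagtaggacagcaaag
second catalytic exon at chr2:153684359-153684477: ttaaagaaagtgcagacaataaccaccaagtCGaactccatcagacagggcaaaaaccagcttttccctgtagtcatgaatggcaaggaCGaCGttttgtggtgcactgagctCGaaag
upstream cassette exon at chr2:153670849-153670908: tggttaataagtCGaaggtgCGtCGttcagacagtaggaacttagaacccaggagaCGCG
The catalytic exons are 70 and 119 nt long, 189 nt together, and 6 of the 10 transcripts hold both while 4 lack both. Transcripts with the pair took 49.2%, 46.8% and 64.2% of the complete coding TPM in the kallisto-style tables and 43.6%, 42.7% and 57.4% in the RSEM-style tables. Replicate 3 was highest in both. The 60-nt cassette exon was kept in 94.1% ± 6.16 of the level in the kallisto-style tables and in 91.6% ± 7.72 in the RSEM-style tables.

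Dnmt3b-201 holds both catalytic exons and Dnmt3b-208 lacks them. Dnmt3b-208 took 32.3% ± 3.46 of the gene's TPM in the kallisto-style and 44.6% ± 12.4 in the RSEM-style tables, while Dnmt3b-201 took 34.9% ± 14.3 in the kallisto-style and 41.7% ± 4.23 in the RSEM-style tables. The leading transcript was thus Dnmt3b-201 in one quantification and Dnmt3b-208 in the other, by less than the spread between libraries. Dnmt3b-202, which differs from Dnmt3b-201 by 8 nt of its own and 118 nt of the other's, had 0.0347, 2.19 and 1.80 TPM in the kallisto-style tables and 0, 0 and 1.43 TPM in the RSEM-style tables. The posterior mean deposited for Dnmt3b-208 in replicate 1 was 106 counts with an SD of 47.8, beside an estimate of 182 counts.

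Dnmt3l (chromosome 10, 78041947 to 78063622, plus strand), whose protein stimulates DNMT3A and DNMT3B, had 1.89, 1.06 and 2.35 TPM in the kallisto-style tables and 2.31, 1.68 and 2.05 TPM in the RSEM-style tables. These levels rest on 42, 25 and 43 kallisto-style counts and on 26, 18 and 21 RSEM-style counts. Dnmt3l-201, which starts 7555 nt downstream of the first annotated start and has 1263 coding nt, led in both, with 83.3% ± 19.1 of the TPM in the kallisto-style and 93.2% ± 11.8 in the RSEM-style tables. At this depth a second start was not detectable in all libraries: the start of the 378-nt coding forms had counts in replicate 1 alone in the kallisto-style tables and in replicate 3 alone in the RSEM-style tables.

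Uhrf1 (chromosome 17, 56303321 to 56323486, plus strand) was the highest of the 10 genes. Its product reads half-methylated CpG and is an E3 ubiquitin ligase. It had 234, 184.0 and 183.9 TPM in the kallisto-style tables and 264.16, 225.42 and 229.76 TPM in the RSEM-style tables, so replicate 1 stood above the other 2 in both. The RSEM-style mean lay at percentile 94.7 of the expressed protein-coding genes. Uhrf1 also exceeded Dnmt1 in each library, by a log2 difference of 1.21 ± 0.06 in the kallisto-style and 1.11 ± 0.03 in the RSEM-style tables.

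The 4 complete coding Uhrf1 transcripts combine 2 starts, 992 nt apart, with the presence or absence of a 24-nt coding segment. The 2 starts (RefSeq windows) and the segment (GENCODE M21, present in Uhrf1-201 and Uhrf1-204) are shown because these choices set the isoforms; all are on the plus strand.
Uhrf1 upstream start at chr17:56303087-56303386: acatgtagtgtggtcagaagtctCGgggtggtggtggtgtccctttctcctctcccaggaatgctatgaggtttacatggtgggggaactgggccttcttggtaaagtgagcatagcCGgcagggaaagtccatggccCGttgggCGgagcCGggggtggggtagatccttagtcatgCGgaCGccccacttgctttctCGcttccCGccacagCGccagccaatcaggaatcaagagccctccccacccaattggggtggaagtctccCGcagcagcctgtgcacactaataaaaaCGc
Uhrf1 downstream start at chr17:56304063-56304362: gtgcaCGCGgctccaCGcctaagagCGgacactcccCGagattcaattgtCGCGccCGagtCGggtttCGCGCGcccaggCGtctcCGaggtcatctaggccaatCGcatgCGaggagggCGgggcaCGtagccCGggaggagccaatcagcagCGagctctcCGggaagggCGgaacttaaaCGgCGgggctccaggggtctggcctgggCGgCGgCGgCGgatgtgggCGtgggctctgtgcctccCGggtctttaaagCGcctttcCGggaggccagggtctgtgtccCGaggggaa
Uhrf1 24-nt segment at chr17:56313041-56313064: cccctcctgccctcCGgaacacag
The upstream window held 12 CG, a number reached by 39.6% of the windows, and the downstream window held 33, reached by 8.56%.

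Taken one at a time, the choices lay closer between the 2 quantifications than their combinations did. The upstream start took 58.1%, 64.7% and 61.4% of the complete coding TPM in the kallisto-style tables and 57.5%, 59.5% and 57.9% in the RSEM-style tables. The segment was included in 78.2%, 79.2% and 79.7% by the kallisto-style tables and in 78.1%, 77.5% and 78.0% by the RSEM-style tables. The libraries of the 2 quantifications overlapped for the start and did not for the segment, whose means were 79.0% (kallisto-style) and 77.9% (RSEM-style). Uhrf1-203, the upstream start without the segment, took 1.39% ± 1.59 in the kallisto-style tables and 15.6% ± 0.190 in the RSEM-style tables. Uhrf1-202, the downstream start without the segment, took 19.6% ± 2.13 (kallisto-style) and 6.57% ± 0.240 (RSEM-style). Uhrf1-204, the downstream start with it, took 19.1% ± 3.80 (kallisto-style) and 35.1% ± 1.25 (RSEM-style), and Uhrf1-201, the upstream start with it, took 60.0% ± 3.97 (kallisto-style) and 42.8% ± 0.953 (RSEM-style). No library of one quantification overlapped those of the other for any of the 4 transcripts. On the genome, introns included, the segment lies several kb past both starts (56304313 for the downstream start and 56313041 for the segment on chromosome 17). Its distance from the starts within the spliced transcripts is not given here. Any pair of these 4 transcripts that was compared shared at least 92.6% of its bases.

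**Figure D2:**
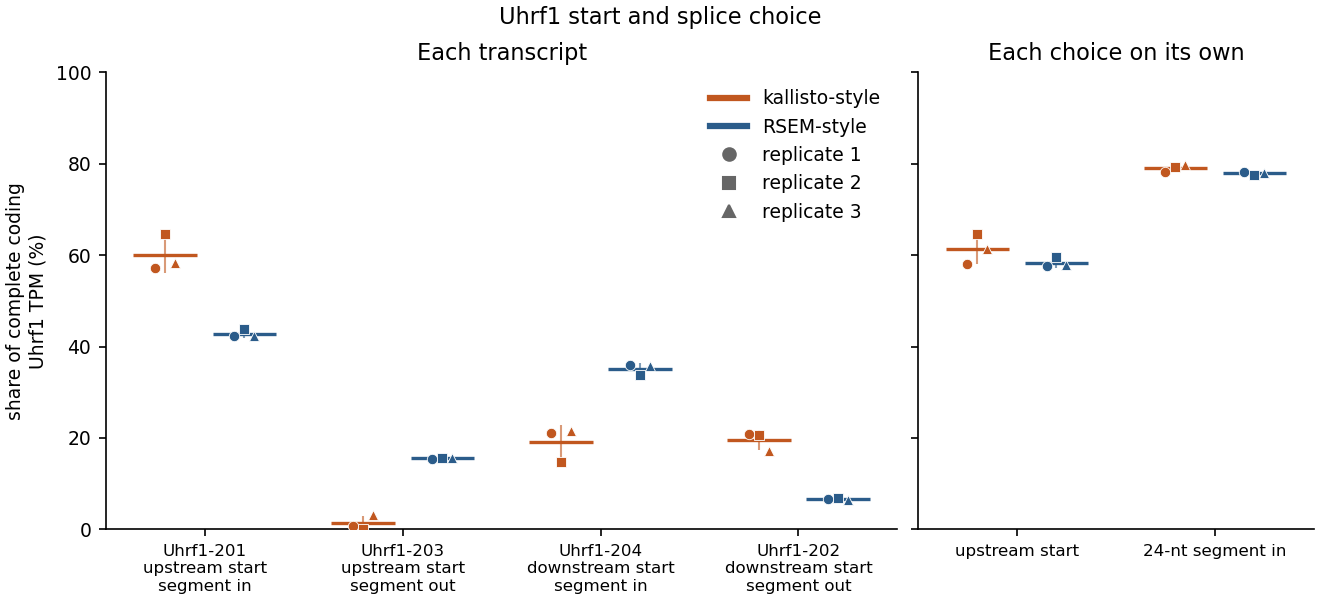
Share of the complete coding Uhrf1 TPM (%) held by each of 4 transcripts (left panel) and by each choice on its own (right panel); marks are the 3 libraries, bars are means, thin lines are 1 SD, and kallisto-style values stand left of RSEM-style values. The 4 transcripts separate by quantification, while upstream start use (61.4% kallisto-style, 58.3% RSEM-style on average) and segment inclusion (79.0% kallisto-style, 77.9% RSEM-style) lie close together.

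Uhrf2 (chromosome 19, 30030513 to 30093722, plus strand) encodes a paralogue of UHRF1 that also binds modified CpG. It had 27.9, 23.0 and 23.7 TPM in the kallisto-style tables and 41.29, 39.33 and 35.31 TPM in the RSEM-style tables, and the 2 sets did not overlap. The single complete coding transcript, Uhrf2-201, had 25.2, 21.6 and 21.9 TPM in the kallisto-style tables and 27.9, 24.6 and 25.3 TPM in the RSEM-style tables. Most of the remaining difference lay in Uhrf2-203, a retained-intron transcript of 1392 nt with 0.0111, 0.117 and 0.763 TPM in the kallisto-style and 10.7, 12.9 and 8.45 TPM in the RSEM-style tables. Of its bases 90.7% also belong to Uhrf2-201.

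Tet1 (chromosome 10, 62804570 to 62908996, minus strand) was the highest of the 3 dioxygenase genes by TPM. It had 43.0, 50.9 and 48.8 TPM in the kallisto-style tables and 45.48, 48.31 and 52.41 TPM in the RSEM-style tables. Replicate 1 was the lowest in both. Complete coding Tet1 transcripts alone had 19.3, 16.6 and 16.3 TPM in the kallisto-style tables and 24.1, 22.65 and 22.9 TPM in the RSEM-style tables, with replicate 1 the highest in both. The noncoding transcript Tet1-202 had 2.8e-05, 6.65 and 4.71 TPM in the kallisto-style tables and 0, 5.58 and 3.91 TPM in the RSEM-style tables, so replicate 1 was its lowest library. Tet1 took 65.4% ± 3.84 of the summed Tet TPM in the kallisto-style and 62.8% ± 2.73 in the RSEM-style tables. Among complete coding transcripts alone, a comparison added after seeing the data, its RSEM-style share was 56.0% ± 0.998.

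Much of the Tet1 level sat on short annotated fragments. Complete coding transcripts held 36.9% ± 6.84 of the Tet1 TPM in the kallisto-style and 47.9% ± 4.73 in the RSEM-style tables, but 94.1% ± 2.36 of the kallisto-style and 96.5% ± 1.12 of the RSEM-style Tet1 counts. Tet1-209, an incomplete coding transcript of 553 nt, led by mean share of TPM with 27.1% ± 2.23 in the kallisto-style and 26.5% ± 2.92 in the RSEM-style tables. It led in 3 of 3 kallisto-style libraries. In the RSEM-style tables it led in replicate 3 alone: the full-length Tet1-201 led in replicate 1 with 32.7%, against 29.6% for Tet1-209, and the full-length Tet1-206 led in replicate 2 with 30.3%, against 23.8% for Tet1-209. Without replicate 1, Tet1-206 led the RSEM-style means. In RSEM-style replicate 1, Tet1-209 had 13.5 TPM on 36.0 counts, Tet1-201 (13986 nt) had 14.85 TPM, and Tet1-206 (14369 nt) had 9.28 TPM on 1006 counts. A further fragment, Tet1-208 (463 nt), had 4.32, 1.67 and 3.76 TPM in the kallisto-style tables and 0, 0.69 and 0.63 TPM in the RSEM-style tables.

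The complete coding forms Tet1-206 and Tet1-201 start 19104 nt apart and differ by a 96-nt coding exon, shown here on the minus strand (GENCODE M21) because it sets the 2 proteins apart.
Tet1 96-nt exon at chr10:62818939-62819034: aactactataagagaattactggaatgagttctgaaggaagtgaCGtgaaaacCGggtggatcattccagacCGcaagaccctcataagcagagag
Tet1-206, which holds the exon, took 46.5%, 63.7% and 56.1% of the pair in the kallisto-style tables and 38.5%, 64.7% and 52.0% in the RSEM-style tables. The form with the higher estimate changed between libraries: Tet1-201 in replicate 1 and Tet1-206 in replicates 2 and 3, in both quantifications. Only 390 nt of Tet1-206 and 7 nt of Tet1-201 tell the pair apart. In RSEM-style replicate 1 the deposited posterior means were 1036 counts (SD 114) for Tet1-206 and 1528 (SD 113) for Tet1-201. They lay closest in replicate 3, at 1330 (SD 196) and 1094 (SD 195), where the lead was not clear. Whether form use differed between libraries was not tested.

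Tet2 (chromosome 3, 133463679 to 133545139, minus strand) had 26.2, 23.1 and 22.9 TPM in the kallisto-style tables and 28.82, 27.39 and 26.22 TPM in the RSEM-style tables. Retained-intron transcripts made up 36.8% ± 2.38 of this level in the kallisto-style and 35.6% ± 4.76 in the RSEM-style tables, the largest such share among the 10 genes in both. Tet2-209, of 6362 nt, led them with 21.9% ± 2.89 in the kallisto-style and 30.1% ± 4.66 in the RSEM-style tables. Tet2-210, a single unspliced exon of 1627 nt, had 1.49, 1.52 and 2.05 TPM in the kallisto-style tables and 0.19, 0.40 and 0.39 TPM in the RSEM-style tables. Libraries from total RNA can hold unspliced RNA, and the part of unspliced RNA in these values was not tested. The coding sequences of the 2 complete coding forms differ by a 24-nt segment (GENCODE M21, minus strand). It is given because the shares of the forms differed between the quantifications. Tet2-201 also has 182 noncoding nt that Tet2-204 lacks, so the shares need not rest on the segment alone.
Tet2 24-nt segment at chr3:133479342-133479365: gaagaaaaagcaatcaccacccag
Tet2-204, which holds it, took 37.6%, 32.5% and 22.5% of the complete coding TPM in the kallisto-style tables and 16.6%, 20.9% and 16.0% in the RSEM-style tables. The 2 sets did not overlap.

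Tet3 (chromosome 6, 83362373 to 83459084, minus strand) was the lowest of the 10 genes. It had 1.29, 0.872 and 0.996 TPM in the kallisto-style tables and 1.48, 0.97 and 1.42 TPM in the RSEM-style tables, there on 116, 69 and 105 counts. The shorter coding form Tet3-202 (5004 coding nt) took 91.5% ± 5.17 of the complete coding TPM in the kallisto-style and 89.4% ± 4.04 in the RSEM-style tables. Tet3-203 (5409 coding nt) starts 14717 nt upstream and encodes the form known to carry the CXXC domain, which binds CpG. It rested on 4.26, 5.91 and 5.74 RSEM-style counts.

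Tdg (chromosome 10, 82629828 to 82650799, plus strand) encodes thymine DNA glycosylase, which removes the oxidised cytosines that TET proteins make. It had 54.7, 46.8 and 48.6 TPM in the kallisto-style tables and 56.32, 54.39 and 57.47 TPM in the RSEM-style tables. Its 2 complete coding transcripts led in turn. Tdg-201 took 65.6% ± 1.30 of the gene's TPM in the kallisto-style and 38.2% ± 3.18 in the RSEM-style tables. Tdg-208 took 30.1% ± 2.63 in the kallisto-style and 50.3% ± 1.98 in the RSEM-style tables. Tdg-208 has 574 nt that Tdg-201 lacks, 72 of them coding, and Tdg-201 has 31 nt of its own. The libraries of the 2 quantifications did not overlap for either form.

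**Figure D3:**
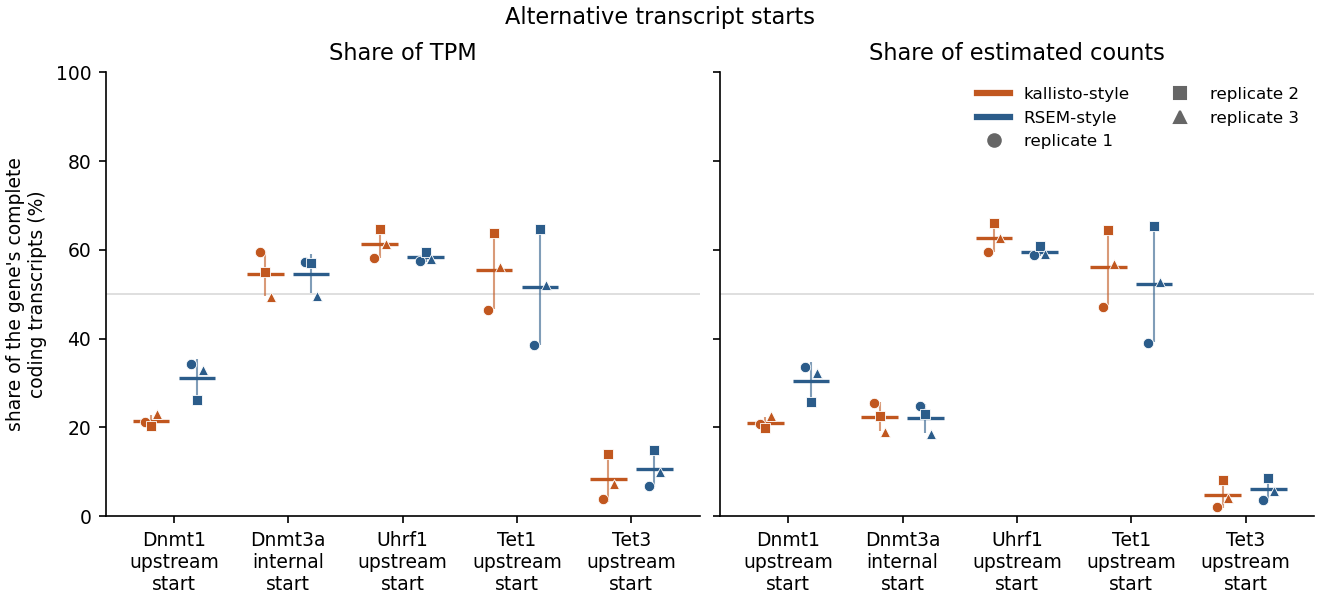
Share (%) of the complete coding transcripts that begin at the named start, by TPM (left panel) and by estimated counts (right panel); marks are the 3 libraries, bars are means, thin lines are 1 SD, with kallisto-style left of RSEM-style values. The Dnmt3a internal start lies at 54.6% by TPM in both and at 22.4% (kallisto-style) and 22.1% (RSEM-style) by counts on average, and the Tet1 upstream start spreads most between libraries.

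Over the 10 genes, the transcript that led by mean share was the same in both quantifications for 8, where it was for 87.9% of the 10918 expressed genes with several transcripts. Dnmt3b and Tdg were the exceptions. Without replicate 1 the exceptions were Tet1 and Tdg, and without replicate 2 or without replicate 3 Tdg alone. By mean share of estimated counts Dnmt3a-201 led Dnmt3a, Tet1-206 led Tet1 and Dnmt3b-201 led Dnmt3b in both quantifications, which left Tdg as the only gene of the 10 with different leaders. The Dnmt3b lead was smaller than the spread between libraries. Its RSEM-style count shares were 44.1% ± 3.33 for Dnmt3b-201 and 43.7% ± 12.1 for Dnmt3b-208, which had more counts in replicates 1 and 2. The kallisto-style count shares were 37.6% ± 16.2 for Dnmt3b-201 and 32.0% ± 4.63 for Dnmt3b-208.

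**Figure D4:**
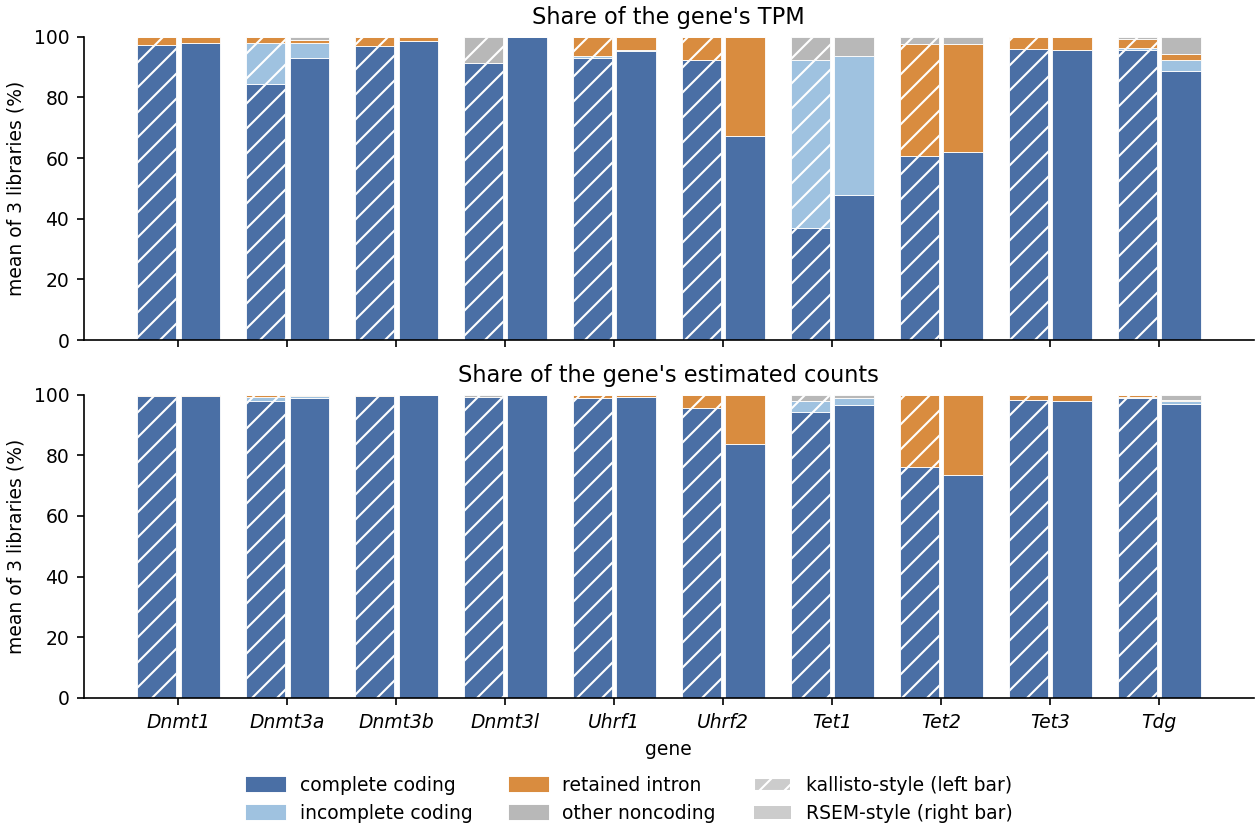
Composition of each gene's TPM (upper panel) and estimated counts (lower panel) by transcript class, in percent, as means of 3 libraries; the hatched left bar of each pair is kallisto-style and the plain right bar RSEM-style. Tet1, Tet2 and Uhrf2 hold the lowest complete coding shares by RSEM-style TPM (47.9%, 62.1% and 67.3%), and Tet2 and Uhrf2 the lowest by RSEM-style counts.

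Within each library, log2(TPM + 1) of the RSEM-style table was subtracted from that of the kallisto-style table and tested with limma, a scale that understates the change of low features. A call needed an adjusted p under 0.05 and a difference of at least 1. Of the 9 genes tested, limma called 0, where 13.1% of all 14743 genes were called, and with no minimum difference it called 6 (Dnmt1, Dnmt3a, Dnmt3b, Tet2, Uhrf1 and Uhrf2), where 78.1% of all genes were. All 9 differences were negative, from -0.62 in Uhrf2 to -0.04 in Tet1, with a median of -0.19; the median over all genes was -0.25. Of the 97 transcripts 29 were tested, and 7 were called, where 19.2% of 28549 transcripts were; with no minimum difference 14 were, where 63% of all were. The kallisto-style level was higher, as for 12.3% of all, for Tet1-208 (1.54 ± 0.38 SE, adjusted p = 0.0340), Uhrf1-202 (1.22 ± 0.09, adjusted p = 0.00352), Dnmt3a-218 (1.02 ± 0.26, adjusted p = 0.0349) and Tet2-210 (1.01 ± 0.08, adjusted p = 0.00410). It was lower, as for 6.89% of all, for Uhrf1-203 (-3.68 ± 0.51, adjusted p = 0.0111), Uhrf2-203 (-3.20 ± 0.29, adjusted p = 0.00512) and Uhrf1-204 (-1.18 ± 0.13, adjusted p = 0.00775). Each of the 7 lay on the same side in 3 of 3 libraries. The calls of Dnmt3a-218 and Tet1-208 ended with a pseudocount of 0.1 and with no filter on low values. Without replicate 1, Uhrf1-202, Uhrf1-204 and Uhrf2-203 were still called of the 7; without replicate 2 the call of Dnmt3a-218 ended, and without replicate 3 those of Tet1-208 and Tet2-210.

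Replicate 1 had the highest TMM-scaled CPM of the 3 libraries for 7 of the 10 genes, where it had for 37.8% of the 13391 genes tested. Its log2 difference from the mean of replicates 2 and 3 was 0.30 for Tet3, 0.26 for Dnmt3a, 0.21 for Dnmt3b, 0.21 for Dnmt3l, 0.13 for Uhrf1, 0.10 for Dnmt1 and 0.09 for Uhrf2, against -0.01 for Tet2, -0.02 for Tet1 and -0.05 for Tdg. Over all genes of at least 20 CPM, this difference went with transcript length, with a median of -0.08 in the shortest quintile and 0.09 in the longest; its part in the values of the 10 genes was not tested. By RSEM-style TPM, replicate 1 was the highest library for 6 of the 8 ES markers (Pou5f1, Sox2, Tfcp2l1, Klf4, Esrrb and Utf1). Pou5f1 had 610.5, 431.4 and 442.4 TPM in replicates 1, 2 and 3. This scale differs from TMM-scaled CPM, and the share of all genes highest in replicate 1 by TPM was not computed. ERCC spike-ins, which the TPM scale includes, took 4.63%, 5.08% and 5.16% of the TPM in replicates 1, 2 and 3. Whether the marker levels and the 10 genes shifted together was not tested.

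By edgeR's quasi-likelihood dispersion, adjusted over all genes tested, 0 of the 10 genes were variable between libraries, where 0.0373% of all genes were. At an unadjusted p under 0.05 the count was also 0, where 4.56% of all genes passed, and limma-voom called 0 as well, where it called 0.0597% of all genes. The lowest unadjusted edgeR p was 0.0707, for Tet3 (adjusted p = 0.987). A chi-square test against counting noise called 3 of the 10 after adjustment, where 12.4% of all genes were called. Uhrf1 (552.9 to 604.5 CPM, adjusted p = 4.66e-06), Dnmt1 (398 to 439 CPM, adjusted p = 0.000961) and Dnmt3a (50.1 to 61.6 CPM, adjusted p = 0.0145) thus differed between libraries by more than counting error. The test calls smaller changes at higher counts, and the 12.4% covers genes of all levels. Their coefficients of variation were 5.23%, 4.87% and 11.0%, where counting alone gives 1.33%, 1.55% and 4.27%. The median over the 200 genes nearest in mean CPM also exceeded counting, at 3.30%, 3.21% and 5.05%. Without replicate 1 the test called 0 of the 10, where 0.2% of all genes were called. Without replicate 2 it called Uhrf1 alone (10.8% of all genes), and without replicate 3 it called these 3 and Tet3 (10.9% of all genes). On kallisto-style counts it called Dnmt1, Dnmt3b and Uhrf1, where 17.6% of all genes were called. Tet1 had the smallest spread, with 251, 255 and 255 CPM in replicates 1, 2 and 3 and a coefficient of variation of 0.856%, below the 1.99% that counting alone gives.

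**Figure D5:**
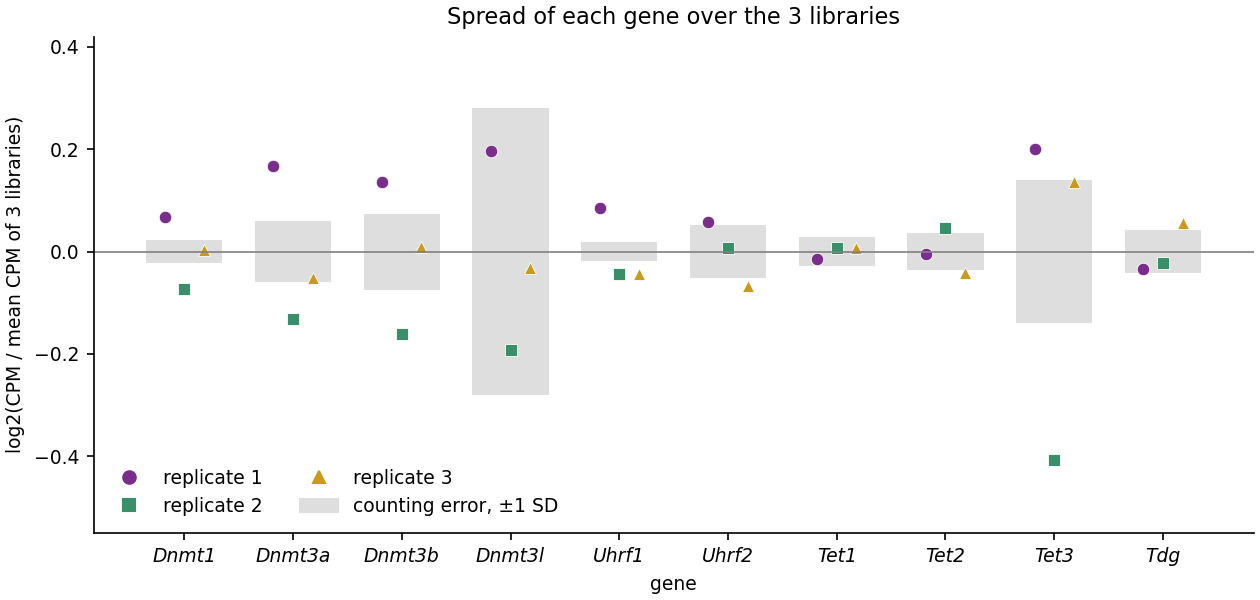
Log2 ratio of each library's TMM-scaled CPM to the gene's mean over the 3 libraries; marks are replicates 1, 2 and 3, and grey bars show counting error of 1 SD to either side. Replicate 1 lies highest for 7 of the 10 genes, and of these it lies inside the grey bar for Dnmt3l alone.

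Other genes of the pathway were described in 5 lists, 44 genes in all, of which 38 had at least 1 TPM in all libraries. Of the DNMT paralogues outside the 10 genes, Trdmt1, a methyltransferase that acts on transfer RNA, had 2.83, 5.87 and 4.90 TPM, and Dnmt3c, a rodent male germline gene, had 0 counts in the RSEM-style tables and 0.0909 ± 0.0657 TPM in the kallisto-style tables. Dnmt3c resembles Dnmt3b, so reads of one can be assigned to the other. Of 8 methyl-CpG readers 6 were expressed. Mbd3, a subunit of the NuRD complex, stood highest at 191 ± 11.7 TPM. The zinc finger genes Zbtb33 and Zbtb4 were lowest at 0.833 ± 0.0611 and 0.313 ± 0.0702 TPM (RSEM-style, SD, n = 3, as below).

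Base excision repair genes were expressed in 9 of 10 cases. Apex1, the endonuclease that cuts at sites left by TDG, averaged 165 ± 7.22 TPM. Parp1, which senses the strand break, averaged 1249 ± 74.2 TPM in the kallisto-style and 273 ± 14.5 TPM in the RSEM-style tables. Neil3 and Neil2, both glycosylases, were lowest at 4.91 ± 0.880 and 0.573 ± 0.188 TPM.

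Of 19 partners and regulators 17 were expressed. Trim28 and Zfp57, which keep methylation at imprinted regions, led: Trim28 had 403 ± 41.8 TPM in the kallisto-style and 702 ± 26.8 TPM in the RSEM-style tables, and Zfp57 had 433 ± 67.4 TPM. In this list Cxxc4 (0 counts), which binds unmethylated CpG, was lowest. All 5 genes that supply the methyl donor or 2-oxoglutarate were expressed: Idh2 (228 ± 5.57 TPM) and Mat2a, which makes S-adenosylmethionine, were highest, and Mat2b (64.4 ± 2.41 TPM) and Ahcy, which clears S-adenosylhomocysteine, lowest. Mat2a averaged 85.3 ± 18.7 TPM in the kallisto-style and 132.6 ± 22.2 TPM in the RSEM-style tables. Ahcy averaged 16.0 ± 1.45 TPM in the kallisto-style and 47.7 ± 4.64 TPM in the RSEM-style tables. Of the 40 list genes tested, the chi-square test called 10 (Parp1, Dppa3, Hells, Ehmt2, Nsd1, Zfp57, Trim28, Ogt, Cxxc5 and Mat2a), beside 12.4% of all genes, and it called 6 of the 8 ES markers (Pou5f1, Sox2, Nanog, Esrrb, Klf4 and Tfcp2l1). The 12.4% covers genes of all levels and was not matched to the levels of these genes.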

How the data were processed

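Total RNA-seq of 3 libraries of the F121-9 line was used as deposited: 1 gene table and 2 transcript tables per library, on mm10 with GENCODE M21 per the deposited notes. Not given in the sources used here: quantifiers, aligner, versions, strand setting. The deposited expected counts (gene tables) and estimated counts (transcript tables) are not normalized; deposited posterior means and SDs of counts belong to the RSEM-style transcript tables. TPM was scaled by the authors over all targets, spike-ins included. The deposited percent column holds each transcript's share of its gene; shares here were recomputed from TPM or counts, and kallisto-style gene levels are sums over transcripts. Lengths are in nucleotides per the file headers.

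Members were found by symbol through the M21 gene IDs. Members and lists were chosen with earlier results of these data known. Named are all 10 members, transcripts with a mean share of at least 10% in either quantification or a call, and the highest 2 and lowest 2 genes of each list. Some list genes that this rule names are not reported here. Complete coding means protein-coding with both coding ends annotated; starts under 200 nt apart form 1 start.

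Spread was tested on rounded counts with edgeR 4.0.16 (filterByExpr, TMM, intercept-only quasi-likelihood fit, R 4.3.3) and by chi-square against Poisson with 2 degrees of freedom. Quantifications were compared with limma 3.58.1 (pseudocount 1, features with TPM of at least 1 by either quantification in every library). Adjusted p-values have Benjamini-Hochberg adjustment over all features tested, and calls were made on them at 0.05 unless named unadjusted. Of 55536 genes, 86 had no kallisto-style value and were set to 0. On simulated data with 50 genes changed per fold in 1 library among 13168, the edgeR test recovered 2%, 58%, 100% and 100% at folds of 1.5, 2, 4 and 8, with 0 false calls. Among 13202 genes the chi-square test recovered 88%, 98%, 100% and 100%, with 12 false calls, and among 23378 features the limma test recovered 100% with 0 false calls. The simulated counts had counting error alone for the chi-square test, and less dispersion than estimated from the data for edgeR. The recoveries and false calls of these 2 tests therefore do not carry over to libraries with more spread. All changes simulated for limma lay well above the minimum difference, so its recovery near that limit was not tested. Python 3.11.15, numpy 2.4.6, pandas 2.3.3 and matplotlib 3.10.9 gave the other values. Alternatives were kallisto-style values, other thresholds, pseudocounts, filters and scalings, and leaving out each replicate.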

Additional observations from a re-analysis of the deposited data

How the results depend on the processing

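No paired analysis was possible because all 3 libraries form 1 group, so no groups share replicate numbers; the quantifications were compared within each library. Dnmt1's share of the Dnmt TPM was 78.2% in the kallisto-style tables and 81.9% by counts, against 79.5%, and between 79.2% and 80.05% with 1 replicate left out. Uhrf1's share of the Uhrf genes was 88.95% (kallisto-style), 88.0% (counts) and 89.8% (complete coding transcripts only, added after seeing the data), against 86.1%. Tet1's share of the Tet genes was 56.0% with complete coding transcripts only, against 62.8%. Dnmt3a's share of Dnmt3a and Dnmt3b was 56.6% (kallisto-style), 60.5% (counts) and 52.4% (complete coding transcripts only), against 53.8%. Neighbours in the order of levels that did not overlap numbered 5 in the kallisto-style tables, against 8 of 9. Genes beyond counting noise numbered 0 without replicate 1, 1 without replicate 2 and 4 without replicate 3, against 3. With no minimum difference, limma called 6 genes, against 0, and 14 transcripts, against 7; with 1 replicate left out it called 4 (without replicate 1) to 6 transcripts. The other settings kept the counts within 1.5 times. In the order of levels, Uhrf2 stood above Tet1 with complete coding transcripts only, and the other settings run on it left the order of the means as reported. Levels of single genes moved by more than 1 SD in 8 cases, 6 with kallisto-style values and 2 (Tet2 and Tdg) with spike-ins left out of the TPM scale. The causes of these changes were not tested. Depth limited Dnmt3l (18 to 26 RSEM-style counts per library) and the Tet3-203 isoform (4.26 to 5.91 RSEM-style counts).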
